A study of Mus musculus with 6 samples.

Results

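The genes Serpina3m, Oas1f, Bglap3, Cyp2b23, Mep1b, Prrc1, Mylpf, Cdyl2, Pecam1 and Dopey2 are 10 of the 12626 genes measured in mouse embryonic stem (ES) cells during their conversion from serum to 2i+vitC medium, and each gives rise to a chimeric transcript whose first exon lies in a transposable element. The study identified such transcripts by reconstructing the transcriptome of the same libraries without a gene annotation, and it listed the 30 genes with the most reads across the junction at day 6 together with the transposon family of the first exon. The 10 genes were taken from that list with earlier results of these data known. Their own levels, and the changes of those levels, are therefore given as a description with no test. Each was set beside the family with which the study paired it, and 8 of the 10 families had a row among the 302 families measured. ERVB7_2B-LTR_MM, paired with Cyp2b23, and RLTR11B, paired with Pecam1, were not analysed here. The other 20 genes of the list, 17 of them found by name, served for comparison. Names beginning with G had lost their first letters in the deposited tables, so Gab1 was not among the 17.

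The cells were J1 WT mouse ES cells, a single male wild-type line, grown without feeder cells on gelatin. RNA was taken at day 0 (D0) in serum with leukemia inhibitory factor (LIF), and at days 6 (D6) and 13 (D13) of growth in 2i+vitC, a serum-free medium with LIF, the Gsk3 inhibitor CT-99021, the MEK inhibitor PD0325901 and vitamin C. Each day had 2 replicates, 6 libraries in all, and no genotype differed between days. Medium and time in culture changed together between D0 and the later days and cannot be told apart.

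Long terminal repeats (LTRs) of endogenous retroviruses carry promoters, and so do full-length LINE1 elements. When such an element lies upstream of a gene or within it, transcription can start in the repeat and be spliced into the exons of the gene, giving a chimeric transcript. In mouse ES cells DNA methylation and histone H3K9 methylation restrain many of these elements. The passage to 2i with vitamin C strips most DNA methylation from the genome.

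The deposited values are log2 CPM, read counts scaled to the size of each library. The 6 libraries held 73230745 to 83688345 reads on genes and 725940 to 1896202 weighted reads on transposon families, so that 1 read was worth about 0.0115 to 0.0140 CPM. A gene row sums all transcripts of the gene, whether they start in a transposon or not. A family row sums weighted reads over the copies of the family, after the study had removed exonic reads. Reads of a family that fall in annotated exons are therefore not in its row. Junction reads were not analysed here. All 11 pluripotency markers examined had a row, with Pou5f1 at mean log2 CPM values of 9.79, 9.66 and 9.82 on the successive days. From D0 to D6, 4 of the 11 passed the threshold given below, all upward, beside 5.91% of all genes upward and 3.9% downward. They were Tbx3 at 3.85, Tfcp2l1 at 3.21, Prdm14 at 2.76 and Nanog at 2.00 on the log2 scale. Nanog fell short of 4-fold without replicate 1 of D0 (1.91). The median of the 11 was 1.31, and only Pou5f1 and Sox2 had lower means at D6, by -0.12 and -0.33. In a bulk RNA sample fewer cells expressing a gene and less RNA per cell cannot be told apart. Calls required a change of over 4-fold for a gene or over 2-fold for a family, with a Benjamini-Hochberg adjusted p under 0.05 in limma fitted on all 12928 rows.

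The mean of every one of the 10 genes was higher at D6 than at D0, by 1.06 to 7.93 on the log2 scale, with a median of 2.90 against -0.01 over all genes. Serpina3m, Oas1f, Bglap3, Cyp2b23, Mep1b, Prrc1 and Mylpf passed the threshold upward, 7 of 10, beside 5.91% of all genes upward and 3.9% downward. From D6 to D13 the median was -0.05, and Mep1b alone passed the threshold, downward, beside 0.697% of all genes downward and 0.388% upward. Between D0 and D13 the median was 2.30 and 6 of the 10 passed upward, beside 7.45% of all genes upward and 6.01% downward. Reads at D6 had entered the choice of the genes, so nothing is read from these counts. The mean was highest at D6 for Serpina3m, Oas1f, Cyp2b23, Mep1b, Mylpf and Cdyl2 and highest at D13 for Bglap3, Prrc1, Pecam1 and Dopey2.

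**Figure D1:**
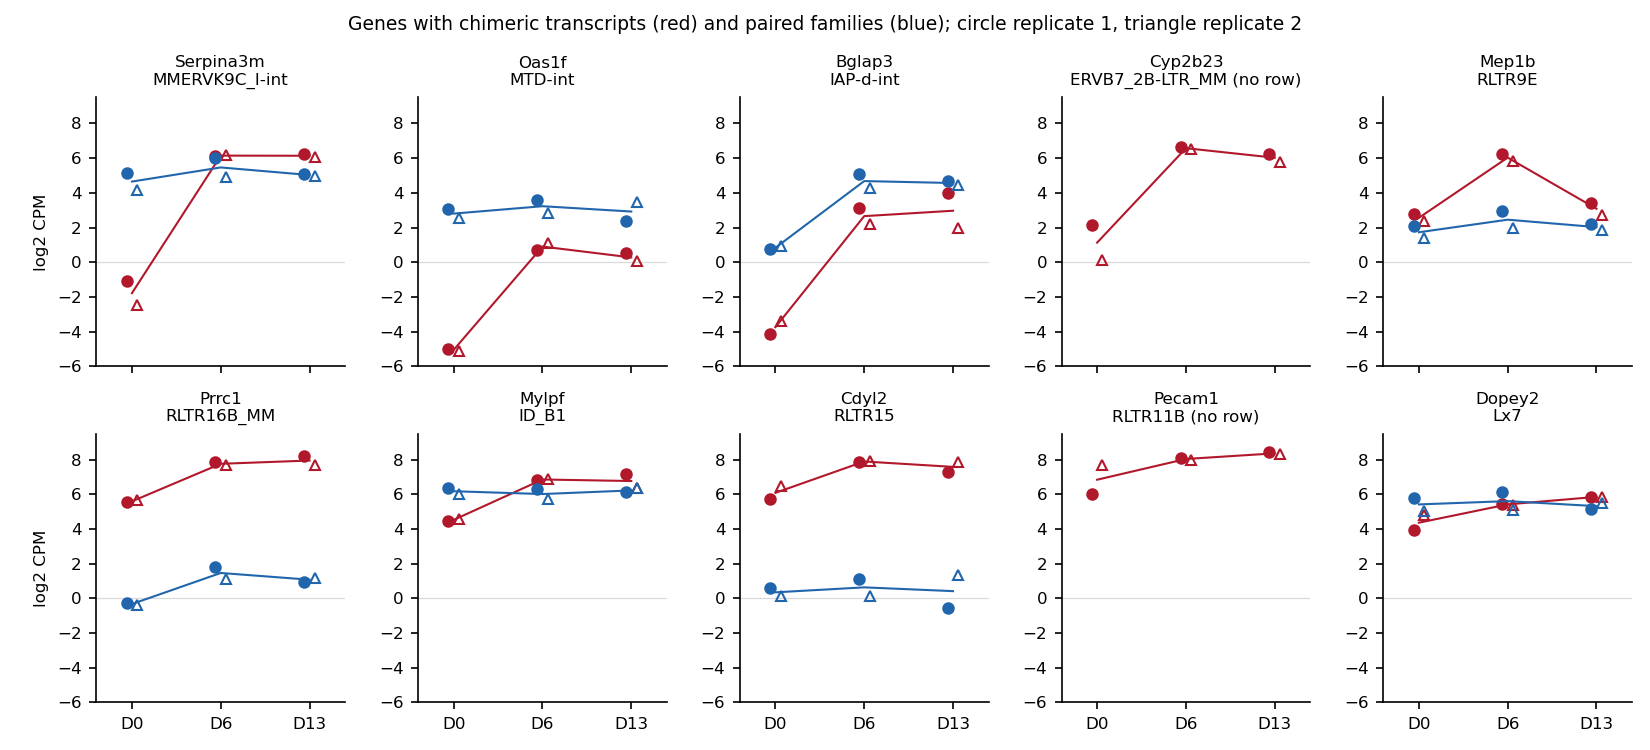
Log2 CPM (vertical axis) at D0, D6 and D13 (horizontal axis) of each gene, in red, and of its paired transposon family, in blue; filled circles are replicate 1, open triangles replicate 2, and lines join the means. Serpina3m, Oas1f, Bglap3 and Cyp2b23 start low and stay high, Mep1b alone comes back down at D13, and of the families IAP-d-int moves the furthest.

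The annotated promoters of these genes are shown because CG dinucleotides are the sites of DNA methylation and the windows differ in how many they hold. RefSeq promoter windows on GRCm38.p6, 250 bases before to 50 bases after a start, matched 5 of the 10 genes with 8 windows. Serpina3m, Mep1b, Prrc1, Cdyl2 and Pecam1 had none. Given 5′ to 3′ on the strand of the gene with each CG in capitals, they are, for Oas1f (chr5:120847117-120847416, plus), Cyp2b23 (chr7:26686381-26686680, minus), Mylpf (chr7:127211358-127211657, plus, around a start inside the RefSeq span of the gene), the most upstream of 3 for Bglap3 (chr3:88372692-88372991, minus) and the more upstream of the pair for Dopey2 (chr16:93711657-93711956, plus):
Oas1f: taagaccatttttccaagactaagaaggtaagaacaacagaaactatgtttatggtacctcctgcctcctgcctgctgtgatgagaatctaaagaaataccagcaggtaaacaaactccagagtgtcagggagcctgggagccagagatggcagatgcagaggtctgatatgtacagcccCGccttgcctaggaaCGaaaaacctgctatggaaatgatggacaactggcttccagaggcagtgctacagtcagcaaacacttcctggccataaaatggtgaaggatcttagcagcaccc
Cyp2b23: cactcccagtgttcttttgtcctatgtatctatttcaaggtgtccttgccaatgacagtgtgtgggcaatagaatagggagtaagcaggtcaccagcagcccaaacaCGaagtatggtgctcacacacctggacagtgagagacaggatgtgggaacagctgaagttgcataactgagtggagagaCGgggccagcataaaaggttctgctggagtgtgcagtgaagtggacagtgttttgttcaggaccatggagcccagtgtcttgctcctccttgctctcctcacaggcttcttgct
Mylpf: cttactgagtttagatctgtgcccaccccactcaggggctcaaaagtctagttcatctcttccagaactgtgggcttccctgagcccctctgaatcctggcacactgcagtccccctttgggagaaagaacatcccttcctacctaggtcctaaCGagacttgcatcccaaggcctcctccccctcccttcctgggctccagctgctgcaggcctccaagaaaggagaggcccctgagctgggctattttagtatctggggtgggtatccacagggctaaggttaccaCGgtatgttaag
Bglap3: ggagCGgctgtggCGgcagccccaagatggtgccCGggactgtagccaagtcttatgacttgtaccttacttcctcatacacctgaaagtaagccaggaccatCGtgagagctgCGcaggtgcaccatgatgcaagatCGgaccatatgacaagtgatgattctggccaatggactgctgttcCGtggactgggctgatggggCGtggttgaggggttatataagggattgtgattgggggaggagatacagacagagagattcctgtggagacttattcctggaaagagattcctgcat
Dopey2: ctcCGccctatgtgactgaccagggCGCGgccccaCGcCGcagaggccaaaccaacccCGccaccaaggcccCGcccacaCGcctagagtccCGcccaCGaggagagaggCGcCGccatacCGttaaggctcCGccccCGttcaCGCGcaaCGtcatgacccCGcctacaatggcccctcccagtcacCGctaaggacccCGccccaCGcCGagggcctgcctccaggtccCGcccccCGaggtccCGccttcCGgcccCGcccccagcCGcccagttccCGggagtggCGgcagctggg

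The windows of Oas1f, Cyp2b23 and Mylpf hold 2 CG each, as few as 4.05% of the windows of measured genes and 23.3% of all 32851 windows. The 3 windows of Bglap3 hold 7, 7 and 8. The windows of Dopey2 hold 31 and 12, against a median of 20 for measured genes and 7 for all. The motif TATAAA, searched on both strands, occurs in 0 of the 8 windows. It occurs in 6.74% of the windows of measured genes and in 13.6% of all windows, so nothing is read from its absence in 8. These are the annotated promoters and not the transposon in which a chimeric transcript starts.

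**Figure D2:**
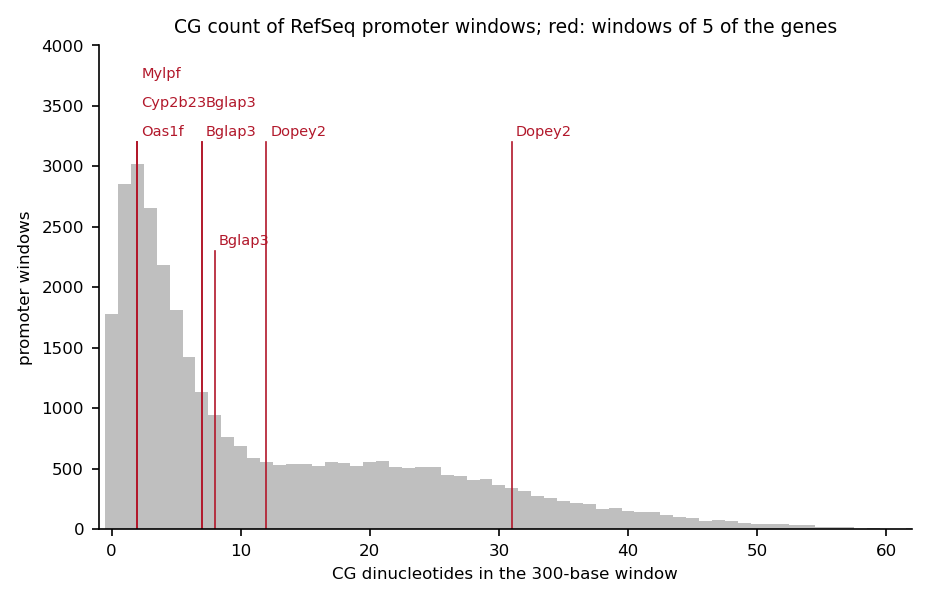
Number of RefSeq promoter windows (vertical axis) with each count of CG dinucleotides in 300 bases (horizontal axis); red lines mark the 8 windows of Oas1f, Bglap3, Cyp2b23, Mylpf and Dopey2. Oas1f, Cyp2b23 and Mylpf lie at 2, under the median of 7 for all windows, and Dopey2 has windows at 12 and 31.

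Serpina3m codes for a member of the serpin A3 clade, a family of secreted protease inhibitors. It lies on chromosome 12 (RefSeq, GRCm38.p6, chr12:104387157-104394259, plus strand). Its log2 CPM was -1.07 and -2.49 at D0, then 6.14 and 6.15 at D6, then 6.23 and 6.05 at D13. The D0 values rest on 37 and 15 reads, and every later library held at least 4956, so the days before and after the change of medium were far apart while D6 and D13 overlapped. The log2 fold change from D0 to D6 was 7.93 ± 0.43 (SE, n = 2 per day), rank 16 among 12626 genes, and between D6 and D13 it was -0.01 ± 0.43. The first was 7.22 without replicate 2 of D0 and 8.64 without replicate 1. On a log2(CPM + 1) scale, which shrinks changes that start from few reads, the first value was 5.77.

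Oas1f belongs to the 2′-5′-oligoadenylate synthetase family, whose enzymes act in antiviral defence (chr5:120847367-120857986, plus strand). It was the lowest of the 10 at every day. Its log2 CPM was -4.98 and -5.13 at D0, then 0.70 and 1.10 at D6, then 0.51 and 0.05 at D13. Only 2 reads were counted in each D0 library, against 128 and 182 at D6, with 101 and 77 at D13. The ratio of summed CPM was 78.5 for D6 over D0 (exact 95% interval 30.4 to 290, counting error only) and 50.4 for D13 over D0 (19.4 to 187). The fitted log2 fold change of 5.95 ± 0.55 (SE, n = 2 per day) became 1.48 with log2(CPM + 1), below the 4-fold threshold, and that from D0 to D13 became 1.11.

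Bglap3 is a member of the osteocalcin gene cluster, whose other members make the bone matrix protein osteocalcin (chr3:88368616-88372741, minus strand). Bglap3 stood at a log2 CPM of -4.13 and -3.36 at D0, then 3.12 and 2.19 at D6, then 3.97 and 1.96 at D13. All 4 later libraries stood above both D0 libraries, which held 4 and 8 reads, and the D13 pair was the most spread of any of the 10 genes after D0. The log2 fold change was 6.40 ± 0.68 (SE, n = 2 per day) from D0 to D6, 0.31 ± 0.68 between D6 and D13 and 6.71 ± 0.68 from D0 to D13. Without replicate 1 or replicate 2 of D13 the last was 5.71 or 7.72. With log2(CPM + 1) the first and last of these were 2.77 and 3.07.

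Cyp2b23 codes for a cytochrome P450 of the Cyp2b subfamily, haem enzymes that oxidise drugs and steroids (chr7:26665227-26686430, minus strand). The log2 CPM of Cyp2b23 was 2.16 and 0.10 at D0, then 6.63 and 6.51 at D6, then 6.25 and 5.79 at D13. The D0 replicates differed by 2.06, the widest gap between replicates among the 10 genes, yet both lay well under all later libraries. The log2 fold change was 5.44 ± 0.55 (SE, n = 2 per day) from D0 to D6 and -0.55 ± 0.55 between D6 and D13. The first was 4.41 without replicate 2 of D0 and 6.47 without replicate 1. Of the 12 other genes of the Cyp2 cluster that were looked for, 1 was measured, Cyp2s1, at 0.95 from D0 to D6 (limma adjusted p = 0.036), under the 4-fold limit.

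Mep1b codes for meprin beta, a metalloprotease of the kidney and gut brush border, and followed a course of its own among the 10 (chr18:21072344-21100199, plus strand). The log2 CPM of Mep1b was 2.77 and 2.35 at D0, then 6.25 and 5.81 at D6, then 3.42 and 2.74 at D13. The D6 pair stood clear of all other libraries, and replicate 2 of D13 lay within the range of D0. The log2 fold change was 3.47 ± 0.32 (SE, n = 2 per day) from D0 to D6, -2.95 ± 0.32 between D6 and D13, rank 12608 of 12626 from the highest, and 0.52 ± 0.32 from D0 to D13. Of its log2 rise 15.1% was kept at D13, against 82.8% to 141% in the other 9 genes. Without replicate 1 of D13 the fall was -3.29 and no longer passed the adjusted p.

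Prrc1 and Mylpf kept pace with each other. Prrc1 codes for a proline-rich coiled-coil protein (chr18:57354733-57392956, plus strand). Its log2 CPM was 5.54 and 5.64 at D0, then 7.83 and 7.67 at D6, then 8.19 and 7.69 at D13. Mylpf codes for the regulatory myosin light chain of fast skeletal muscle (chr7:127208848-127214288, plus strand), and its log2 CPM was 4.46 and 4.58 at D0, then 6.79 and 6.90 at D6, then 7.16 and 6.36 at D13. Both pairs of D0 libraries lay below all later ones, while D6 and D13 overlapped in each gene. From D0 to D6 Prrc1 changed by 2.16 ± 0.23 and Mylpf by 2.33 ± 0.28 (log2, SE, n = 2 per day). From D6 to D13 they changed by 0.19 ± 0.23 and -0.09 ± 0.28. Without replicate 1 of D13 the D0 to D13 change of Mylpf was 1.84 and fell under the 4-fold threshold.

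Cdyl2, Pecam1 and Dopey2 did not pass the threshold from D0 to D6. Cdyl2 codes for a chromodomain protein that binds methylated histone H3 (chr8:116568723-116732991, minus strand), and its log2 CPM was 5.71 and 6.45 at D0, then 7.87 and 7.91 at D6, then 7.30 and 7.85 at D13. Pecam1 codes for CD31, an adhesion molecule of endothelial cells that ES cells also carry (chr11:106654213-106715281, minus strand), and its log2 CPM was 5.997 and 7.68 at D0, then 8.10 and 7.96 at D6, then 8.41 and 8.30 at D13. Dopey2, named Dop1b in RefSeq, codes for a large protein of endosome to Golgi traffic (chr16:93711907-93810588, plus strand), and its log2 CPM was 3.91 and 4.80 at D0, then 5.43 and 5.401 at D6, then 5.84 and 5.86 at D13. In all 3 genes replicate 2 of D0 was the higher, and both D0 values still lay under every later value. The log2 fold changes from D0 to D6 were 1.81 ± 0.29 for Cdyl2, 1.20 ± 0.45 for Pecam1 and 1.06 ± 0.30 for Dopey2 (SE, n = 2 per day), with 95% intervals of 1.14 to 2.47, 0.17 to 2.22 and 0.38 to 1.74. Without replicate 2 of D0 those of Cdyl2 and Pecam1 became 2.18 and 2.04 and passed the threshold, and that of Pecam1 from D0 to D13 became 2.36 and passed as well. Without replicate 1 of D0 the changes from D0 to D6 were 1.44 for Cdyl2, 0.36 for Pecam1 and 0.61 for Dopey2, and that of Pecam1 from D0 to D13 was 0.68.

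Over the 10 genes, replicate 1 was the higher for 4 at D0, 6 at D6 and 8 at D13. The median gap between replicates was 0.75 at D0, then 0.13 at D6, then 0.48 at D13 on the log2 scale.

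**Figure D3:**
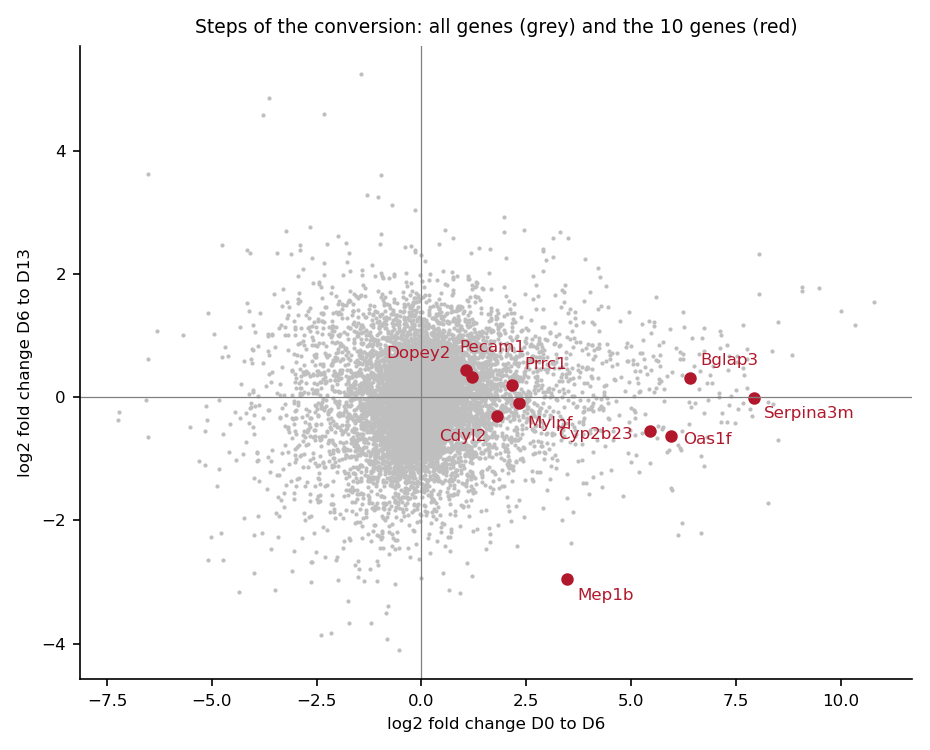
Log2 fold change from D0 to D6 (horizontal axis) against that between D6 and D13 (vertical axis) for all 12626 genes, in grey, and the 10 genes, in red. The 10 genes lie between 1.06 and 7.93 on the horizontal axis and within 0.63 of zero on the vertical axis, except Mep1b at -2.95; the axes share the D6 libraries, so the slope of the cloud is not a result.

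Levels were compared between genes as CPM per kb of exon (GENCODE vM21 exon union). At D6 Mylpf stood highest at 109 ± 5.84 (SD, n = 2), followed by Cdyl2 at 98.2 ± 1.87, Cyp2b23 at 43.5 ± 2.68, Pecam1 at 42.1 ± 2.97, Serpina3m at 41.2 ± 0.28, Mep1b at 25.2 ± 5.38, Prrc1 at 18.02 ± 1.43, Dopey2 at 4.31 ± 0.06, Bglap3 at 2.52 ± 1.10 and Oas1f at 1.28 ± 0.25 CPM per kb. The 2 values of Pecam1 spanned 39.98 to 44.2 and overlapped those of both Cyp2b23 and Serpina3m, while both values of Cyp2b23, 41.6 and 45.4, lay above both of Serpina3m, 40.95 and 41.4. Serpina3m thus went from the lowest 3.25% of 11890 genes with a length at D0 to above 89.5% of them at D6, while Oas1f reached 19.0% and Bglap3 29.5%. At D0 the order was led by Cdyl2 at 29.0 ± 10.2, Mylpf at 21.6 ± 1.33 and Pecam1 at 21.5 ± 16.0 CPM per kb, whose values overlapped.

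The paired families, whose rows leave out exonic reads, moved far less. Of the 8 with a row, IAP-d-int and RLTR16B_MM rose at D6 over D0, where 12.9% of all 302 families were called upward and 0% downward, and at D13 over D0, where 9.27% were called upward and 5.63% downward. Between D6 and D13 limma called 0 of the 8, with or without voom weights, 0 had an unadjusted p under 0.05, and 3.97% of all families were called, downward. The mean change of the gene was larger than that of its family in 8 of 8 pairs from D0 to D6, by 0.37 to 7.11 on the log2 scale, which is a description because the genes were chosen on these libraries. In the plot of gene against family, IAP-d-int and RLTR16B_MM are the families that lie away from zero.

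**Figure D4:**
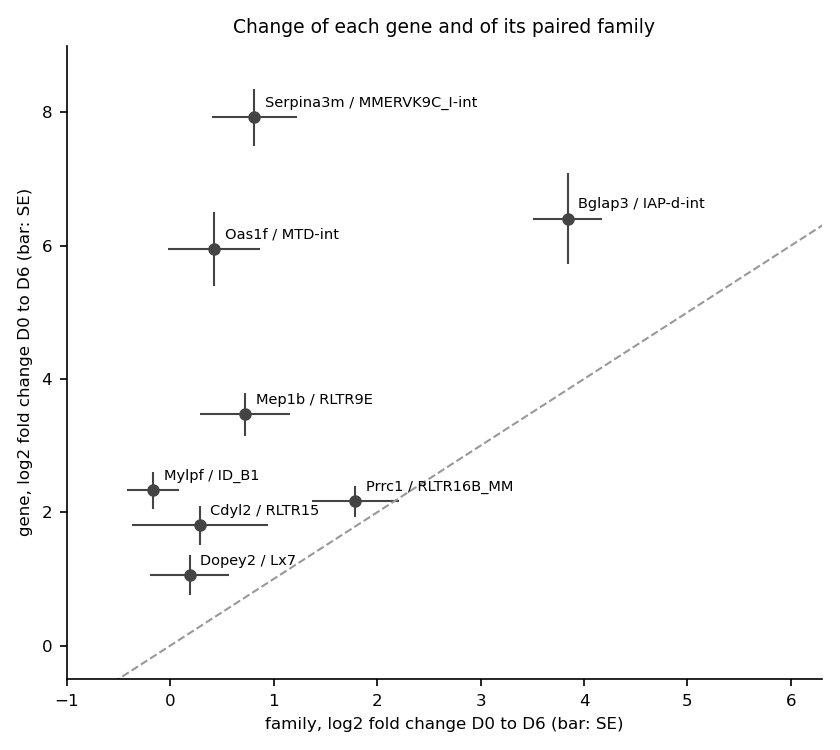
Log2 fold change from D0 to D6 of the paired family (horizontal axis) and of the gene (vertical axis) for the 8 pairs with both rows; bars are standard errors (n = 2 per day) and the dashed line marks equal change. All 8 points lie above the line, Prrc1 with RLTR16B_MM the nearest to it at 0.37, and 6 of the families lie between -0.16 and 0.81.

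IAP-d-int, the internal part of an intracisternal A particle subfamily and the partner of Bglap3, had a log2 CPM of 0.76 and 0.91 at D0, then 5.09 and 4.27 at D6, then 4.70 and 4.43 at D13. It rose by 3.84 ± 0.33 from D0 to D6 (limma, SE, n = 2 per day, adjusted p = 0.00011), held its level between D6 and D13 at -0.11 ± 0.33 (adjusted p = 0.87, 95% interval -0.87 to 0.64), and stood 3.73 ± 0.33 above D0 at D13 (adjusted p = 8.5e-05). Bglap3 was near silent in serum, while IAP-d-int held 133 and 163 weighted reads there. Both gene and family were high at both later days.

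RLTR16B_MM, an LTR family and the partner of Prrc1, had a log2 CPM of -0.27 and -0.39 at D0, then 1.82 and 1.10 at D6, then 0.96 and 1.18 at D13, on 65 to 278 weighted reads. It rose by 1.79 ± 0.42 at D6 over D0 (limma, adjusted p = 0.015) and by 1.40 ± 0.42 at D13 over D0 (adjusted p = 0.027). The first call was lost without replicate 1 of D6, at 1.43 and an adjusted p of 0.23. The second was lost when only the D0 and D13 libraries were fitted, at an adjusted p of 0.065, on the log2(CPM + 1) scale, at 0.79, and without any 1 of 5 of the 6 libraries, at adjusted p between 0.058 and 0.084 (1.29 to 1.51).

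MMERVK9C_I-int, an ERVK internal sequence, had a log2 CPM of 5.14 and 4.16 at D0, then 6.01 and 4.91 at D6, then 5.09 and 4.96 at D13, beside the 7.93 of its partner Serpina3m. Its change from D0 to D6 was 0.81 ± 0.41 (limma, adjusted p = 0.20, 95% interval -0.13 to 1.75). RLTR9E, the LTR paired with Mep1b, had 2.08 and 1.37 at D0, then 2.95 and 1.95 at D6, then 2.22 and 1.83 at D13. Its means were thus highest at D6, as were those of Mep1b, and the days overlapped. Its changes were 0.72 ± 0.44 from D0 to D6 (limma, adjusted p = 0.28, interval -0.27 to 1.72) and -0.43 ± 0.44 between D6 and D13 (adjusted p = 0.58, interval -1.42 to 0.57).

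MTD-int, the MaLR-type internal sequence paired with Oas1f, had a log2 CPM of 3.06 and 2.54 at D0, then 3.61 and 2.85 at D6, then 2.35 and 3.49 at D13, and changed by 0.43 ± 0.44 from D0 to D6 (limma, adjusted p = 0.55). The SINE family ID_B1, paired with Mylpf, ranged from 5.75 to 6.34 over the 6 libraries. Its change from D0 to D6 was -0.16 ± 0.25 (limma, adjusted p = 0.70). The LTR family RLTR15, paired with Cdyl2, ranged from -0.53 to 1.36 on 49 to 192 weighted reads, and the LINE family Lx7, paired with Dopey2, from 5.03 to 6.13. Their changes from D0 to D6 were 0.29 ± 0.66 and 0.19 ± 0.38 (limma, adjusted p = 0.80 and 0.78), and the 95% intervals, -1.20 to 1.78 and -0.68 to 1.06, include both rises and falls of 1.5-fold.

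The family rows carried a gap between replicates that the gene rows did not. Replicate 1 was higher than replicate 2 in 258 of 302 families at D0, 291 at D6 and 66 at D13, with median log2 gaps of 0.42, 0.77 and -0.78, against -0.06, -0.02 and 0.01 over all genes. Among the 8 paired families replicate 1 was the higher in 7 at D0, 8 at D6 and 3 at D13. The part of this gap in the family changes was not tested beyond leaving out each library.

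The list gave Lx7, RLTR11B and RLTR15 to more than 1 gene each. Gab1, paired with RLTR15 besides Cdyl2, has a name beginning with G and was not examined here. In Lx7 and RLTR11B the paired genes did not all change by the same amount. Lx7 was also paired with Nfu1, an iron-sulfur cluster scaffold gene, whose log2 fold change from D0 to D6 was 0.41 ± 0.23 beside 1.06 ± 0.30 for Dopey2. RLTR11B was also paired with Fbrsl1, at 0.92 ± 0.39 beside 1.20 ± 0.45 for Pecam1. From D0 to D13 the values were 0.44 for Nfu1 and 1.49 for Dopey2, and 0.12 for Fbrsl1 and 1.52 for Pecam1. These differences between genes were not tested.

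The genes that flank the 10 on the chromosome were not used in their choice. Serpina3k and Oas1g are paralogs of Serpina3m and Oas1f that could share reads with them, so these rows are not independent of it. For each gene the nearest measured gene on either side that could be placed by its name was taken, within 500 kb between starts, 18 in all. Of the 12626 gene rows 11887 were matched to RefSeq by name. Names that had lost a first G were not placed, so a nearer measured gene may have been passed over. From D0 to D6 limma called 3 of the 18, all upward, beside 5.91% of all genes, with a median log2 fold change of 0.24. From D0 to D13 it called the same 3, beside 7.45%. From D6 to D13 it called 0, with or without voom weights, while 3 had an unadjusted p under 0.05.

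**Figure D5:**
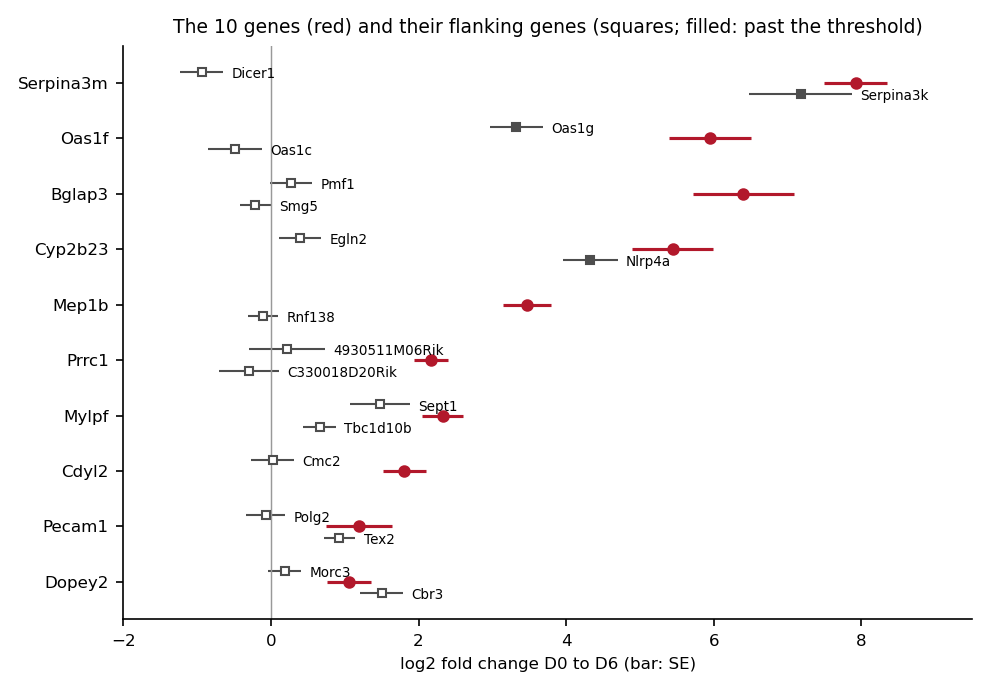
Log2 fold change from D0 to D6 (horizontal axis) of the 10 genes (red points) and of the nearest placed gene on either side (squares). Squares are filled where limma called the change. Bars are standard errors (n = 2 per day). The filled squares are Serpina3k, Oas1g and Nlrp4a, at 3.33 to 7.18, and the other 15 lie between -0.94 and 1.501.

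Serpina3k, a serpin paralog whose start lies 48.7 kb from that of Serpina3m, rose by 7.18 ± 0.69 from D0 to D6 (limma, SE, n = 2 per day, adjusted p = 0.00018). It held 6 and 1 reads at D0, then 428 and 465 at D6, then 308 and 363 at D13. In GENCODE vM21 the most upstream transcript of Serpina3m starts at position 104338486 of chromosome 12, the RefSeq start of Serpina3k, 48671 bp before the RefSeq start of Serpina3m. The serpin A3 paralogs are close copies that could share reads, so the split of counts among these rows is uncertain. Serpina3h and Serpina3i rose as well, by 5.71 ± 0.46 and 2.86 ± 0.41 (limma, adjusted p = 8.3e-05 and 0.0014). All 3 of the measured paralogs, of 10 listed, were thus called upward. Serpina3h held 5 and 4 reads at D0, and a paralog low on every day may have no row. Nothing is therefore read from this count. The nearest placed gene on the other side, Dicer1, was at -0.94 ± 0.29, under the 4-fold limit.

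Oas1g, whose start lies 28.8 kb from that of Oas1f, rose by 3.33 ± 0.36 from D0 to D6 (limma, adjusted p = 0.00031), while Oas1c, 47.2 kb to the other side, was at -0.48 ± 0.36 (adjusted p = 0.39). Of the 8 measured Oas family members other than Oas1f, 4 rose from D0 to D6, among them Oas1a by 4.57 ± 0.27 and Oasl1 by 2.14 ± 0.49 (limma, adjusted p = 2.1e-05 and 0.014). The 1 that completes the 4 was Oas1d, at 2.13 ± 0.45 (adjusted p = 0.0090), named after its value was seen. Without replicate 1 of D0 or replicate 2 of D6 the call of Oasl1 was lost (1.73 and 1.79), and without replicate 1 of D6 that of Oas1d (1.91). The other 4 were not called at D6. Oas2 and Oas1c were at 0.27 and -0.48, Oas3 at -1.30 ± 0.40 (limma, adjusted p = 0.045) and Oasl2 at -2.09 ± 0.70 (adjusted p = 0.061). Oasl2 was called downward with the replicate block (adjusted p = 0.014) and without replicate 2 of D0 (-3.13, adjusted p = 0.010). From D0 to D13 Oas1a and Oas1g were called upward and Oasl2 downward, by 3.92. Reads shared among close Oas1 copies make the split between them uncertain. Of 16 other interferon response genes listed 6 had a row, and limma called 0 upward at D6, also with voom weights, while 4 had an unadjusted p under 0.05. Ifit2 fell by 2.69 ± 0.82 (limma, adjusted p = 0.044), a call lost without either D0 library or replicate 1 of D6, at adjusted p of 0.20, 0.085 and 0.12.

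Nlrp4a, an oocyte-expressed gene of the NLR family that lies 230.1 kb from Cyp2b23, rose by 4.33 ± 0.37 at D6 over D0 (limma, adjusted p = 0.00011) and stood 4.15 ± 0.37 above D0 at D13. Its log2 CPM was -1.07 and -0.60 at D0, then 3.38 and 3.595 at D6, then 2.98 and 3.65 at D13. For Mep1b the placed neighbour was Rnf138, at -0.10 ± 0.20 from D0 to D6 and 0.31 ± 0.20 between D6 and D13. Both placed neighbours of Bglap3, Smg5 and Pmf1, were within 0.27 of zero from D0 to D6, and both of Prrc1 within 0.30. Sept1, which overlaps Mylpf on the chromosome, was at 1.48 ± 0.40 from D0 to D6 (limma, adjusted p = 0.029), under the 4-fold limit. The library kit keeps strand, but whether strand was used in counting is not given in the sources used here, so reads in the overlap may have been assigned to neither gene or to either.

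Annotated starts differed from the RefSeq start in several of the genes. GENCODE vM21 places the most upstream start of Mep1b 10421 bp and that of Pecam1 35347 bp before the RefSeq start, besides the 48671 bp of Serpina3m. For Oas1f, Bglap3, Cyp2b23, Prrc1, Mylpf, Cdyl2 and Dopey2 the annotations were within 42 bp of each other. The number of distinct annotated starts ran from 1 for Cyp2b23 and Cdyl2 to 14 for Dopey2, with a median of 5 over 11439 genes. Which start was used cannot be read from gene counts.

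Several of the 10 genes are known as markers of differentiated tissue, and the other markers of those tissues were examined. Of 12 skeletal muscle genes listed, 2 had a row, Actn3 and Myh3. Actn3 fell by 2.13 ± 0.31 at D6 (limma, adjusted p = 0.0013) and their summed CPM went from 33.5 to 41.7 at D0 to 9.63 to 9.68 at D6, while Mylpf went up. Of 10 endothelial genes 5 had a row, not among them Cdh5, Tie1 or Emcn, and limma called 0 from D0 to D6, with 2 at an unadjusted p under 0.05, while with voom weights it called Flt1, downward, at -2.33 (adjusted p = 0.043), as it did with the replicate block (adjusted p = 0.032) and without replicate 2 of D6 (-3.74). Their summed CPM was 53.1 to 55.9 at D0, 97.2 to 102 at D6 and 93.3 to 98.3 at D13. From D0 to D6 Eng rose by 1.48 ± 0.23 (limma, adjusted p = 0.0018), under the 4-fold limit. Vwf, Kdr and Tek were at 1.08, 0.32 and 0.27. From D0 to D13 Vwf was called upward, at 2.31 ± 0.50, and Flt1 downward, at -3.40 ± 0.82 (limma, adjusted p = 0.0062 and 0.011). Both of these calls were lost in some fits without 1 library. Of 7 osteoblast genes 4 had a row, not among them Runx2, Sp7 or Ibsp. Alpl and Spp1 rose by 2.25 ± 0.26 and 2.05 ± 0.26 at D6 (limma, adjusted p = 0.00040 and 0.00069), and both are known to be expressed in ES cells as well. The call of Spp1 was lost without replicate 1 of D0 or of D6, at 1.83 and 1.98, under the 4-fold limit. The other 2, Col1a1 and Col1a2, were at -1.58 ± 0.65 and -2.13 ± 0.76 (limma, adjusted p = 0.12 and 0.078). Col1a2 was called downward with the replicate block, with voom weights and with only the D0 and D6 libraries (adjusted p = 0.015, 0.030 and 0.020), and Col1a1 without replicate 2 of D0, at -2.75 (adjusted p = 0.0025). Of 11 liver and visceral endoderm genes 1 had a row, Trf, which fell by 2.44 ± 0.36 (adjusted p = 0.0015). Of the listed genes of primitive endoderm (4 of 8 found by name), trophoblast (2 of 6) and fibroblasts (2 of 6), limma called 1 downward, 0 and 1 upward at D6. The trophoblast count was also 0 with voom weights, with 1 at an unadjusted p under 0.05. Names beginning with G were not used, so Gata6 and Gata4 of primitive endoderm and Gcm1 of trophoblast were not examined. The fibroblast genes were Vim, at 2.42 ± 0.54, a call lost without replicate 2 of D0 (1.42), and Thy1, at -1.89 ± 0.45, which was called downward without that library (-2.35, limma adjusted p = 0.013). The part of cells other than ES cells in the 10 genes was not tested.

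Likeness of course was measured as the root-mean-square difference over the 6 libraries of log2 CPM minus the D0 mean, among 11340 genes with at least 10 reads in 2 libraries. Nearest to Mep1b were Trim43a, Edil3 and Msc, at 0.41, 0.64 and 0.68, and the family nearest to it was RLTR45-int at 0.68, with RLTR9E in place 42 of 293 families. Nearest to Serpina3m were Pkd2l1, Ly6a and Xkr9, at 0.36 to 0.38, and to Oas1f Hspb7, Sgcz and Aox3, at 0.32 to 0.35. Nearest to Bglap3 were Smok2a, Slc22a13 and Dcstamp, at 0.38 to 0.59, with IAP-d-int in place 9 among families, and nearest to Cyp2b23 were Olfr901, Sgcz and Pglyrp1, at 0.37 to 0.51.

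The courses of the more abundant genes had closer matches. Nearest to Prrc1 were Sccpdh, Ostf1 and Spp1, at 0.13 to 0.15, with RLTR16B_MM in place 8 among families, the closest rank of any paired family. Nearest to Mylpf was Prrc1 itself at 0.16, then Cela2a and Tfap2a. Nearest to Cdyl2 were Dixdc1, Bmi1 and Klf4, at 0.11 to 0.16, nearest to Pecam1 Pla2g4f, Tsks and Peli3, at 0.13 to 0.16, and nearest to Dopey2 Stat5a, Zfp939 and Tm7sf3, at 0.05 to 0.11. The paired families MMERVK9C_I-int, MTD-int, ID_B1, RLTR15 and Lx7 ranked 52, 83, 144, 93 and 124 of 293 by likeness to their genes. The points share libraries and the differences carry no test.

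The relatives and partners of Cdyl2 and Dopey2 and the other myosin light chains were set beside them. Cdyl, Dopey1, Mon2 and Atp9a gave 0 calls from D0 to D6 by limma, also with voom weights, with 2 at an unadjusted p under 0.05, and a median log2 fold change of -0.40. Atp9a was at 1.56 ± 0.27 (limma, adjusted p = 0.0033), under the 4-fold limit, and Cdyl, Dopey1 and Mon2 were at -0.52, -0.27 and -0.56 (adjusted p = 0.20, 0.68 and 0.11). Of 11 myosin light chain genes other than Mylpf 5 had a row. These also gave 0 calls by limma, with or without voom weights, with 1 at an unadjusted p under 0.05, and a median of 0.25, beside 2.33 for Mylpf.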

How the data were processed

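Total RNA of 6 libraries (D0, D6 and D13, 2 replicates each) was sequenced after TruSeq Stranded mRNA preparation. The values deposited by the authors are log2 CPM, voom-transformed after TMM scaling, of genes and transposon families together. Per the study's methods and the submitters' processing notes, gene reads were mapped to mm10 with TopHat2 2.0.6 and counted with HTSeq 0.6.1. Transposon reads were mapped with Bowtie 1.0.0, exonic reads were removed, and the rest were weighted by their number of sites. Multiply mapped reads make values of close repeat families and gene copies less certain.

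The 10 genes, their families and all gene lists were chosen with earlier results of these data known. Names beginning with G had lost their first letters in the deposited tables and were not used. Changes were tested with limma 3.58.1 in R 4.3.3, with a mean-variance trend, a mean per day and all 6 libraries, and p-values were adjusted over 12928 rows. The p-values and SE use a spread between replicates that is pooled over all days and drawn toward the mean-variance trend. They are therefore not the spread of the days compared alone. The separate origin of the 2 replicates per day is given only as biological replicates. In simulated data for D0 against D6, limma called 100% of 200 genes changed by 3 on the log2 scale and 0 unchanged genes. The changed genes were well counted and were drawn with a smaller spread between replicates than Cyp2b23 had at D0 (SD 1.46 in log2). The result checks the fit and gives no power or error rate for these data. Whole reads were recovered from the log2 values, each being the read number plus 0.5 times a constant of the library. Intervals and floors cover counting error only. Flanking genes, exon lengths and starts came from RefSeq GRCm38.p6 and GENCODE vM21. The text names the 10 genes, their families, called flanking genes, up to 3 called genes per list with the largest change and the nearest genes by likeness. Flanking genes that were not called, and list genes given as values, were named beside them. Alternatives were a read minimum, only the days compared, a replicate block, no trend, voom weights, median centring, log2(CPM + 1), other thresholds and leaving out each library.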

Additional observations from a re-analysis of the deposited data

How the results depend on the processing

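Only 2 replicate numbers were shared by the days, and no label ties equal numbers to a common culture. The correlation of the differences between replicates over genes was -0.13 for D0 with D6, 0.33 for D6 with D13 and 0.14 for D0 with D13, and over families it was 0.54, 0.10 and 0.22. The numbers were not taken to pair the libraries, although over families all 3 correlations were positive. The fit with the number as a block left the counts at 7, 1 and 6 of the 10 genes and 2, 0 and 2 paired families, and those of the other listed and the flanking genes as they were. Among the gene lists at D6 it added downward calls of Oasl2, Flt1 and Col1a2. At an adjusted p under 0.01 the counts became 1 for paired families from D0 to D6 and from D0 to D13, and 0 of the 10 genes between D6 and D13. With a 2-fold minimum for genes and a 4-fold minimum for families, paired families called were 1 in each comparison with D0, other listed genes 5, 1 and 7 from D0 to D6, D6 to D13 and D0 to D13, and flanking genes 5 and 9 from D0 to D6 and D0 to D13. From D0 to D13, fitting only those days or log2(CPM + 1) left 1 paired family, and log2(CPM + 1) left 1 other listed gene. On that scale the D0 to D6 changes of Serpina3h, Serpina3i, Oas1d, Oasl1, Ifit2, Actn3 and Trf were also under 4-fold. The change of Nanog no longer passed the 4-fold limit either.

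Leaving out each library in turn gave 7 to 9, 0 to 1 and 5 to 7 of the 10 genes called from D0 to D6, D6 to D13 and D0 to D13. It gave 1 to 2, 0 to 0 and 1 to 2 paired families, 1 to 2, 0 to 0 and 2 to 4 other listed genes, and 3 to 4, 0 to 0 and 3 to 4 flanking genes. Without D0 replicate 2 the other listed genes called from D0 to D6 were 1, and without D13 replicate 2 those from D0 to D13 were 4. Family changes that were not called changed sign when a library was left out. Over these fits the log2 change from D0 to D6 ran from -0.43 to 0.10 for ID_B1, -0.19 to 0.77 for RLTR15 and -0.34 to 0.72 for Lx7. From D6 to D13 it ran from -0.99 to 0.11 for MMERVK9C_I-int, -0.88 to 0.26 for MTD-int, -0.52 to 0.30 for IAP-d-int, -0.93 to 0.071 for RLTR9E, -0.054 to 0.47 for ID_B1, -1.16 to 0.73 for RLTR15 and -0.82 to 0.24 for Lx7. From D0 to D13 it ran from -0.11 to 0.87 for MMERVK9C_I-int, -0.45 to 0.69 for MTD-int, -0.060 to 0.65 for RLTR9E, -0.12 to 0.21 for ID_B1, -0.88 to 1.01 for RLTR15 and -0.48 to 0.28 for Lx7. With 2 replicates a day and 49 to 278 weighted reads, changes of RLTR15 and RLTR16B_MM are the least certain, and the D0 levels of Oas1f and Bglap3 rest on 4 and 12 reads in all. The cause of the lost calls was not tested.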

Other observations

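Among the 17 other genes of the list of chimeric transcripts that were found by name, also chosen on these libraries, Wdr95 and Ccbl2 were called upward from D0 to D6. Wdr95, a WD-repeat gene paired with the LINE1 family L1MB2, had a mean log2 CPM of -1.62 at D0, then 2.41 at D6, then 2.60 at D13, on 19 and 37 reads at D0. Its family was at -0.06 ± 0.52 from D0 to D6 (limma, SE, n = 2 per day, adjusted p = 0.95). Ccbl2, an aminotransferase gene of the kynurenine pathway, changed by 2.23 ± 0.31 from D0 to D6. Its partner RLTR44-int rose by 2.52 ± 0.44 (limma, adjusted p = 0.0035) and stood 1.90 ± 0.44 above D0 at D13 (adjusted p = 0.0086), so both gene and family were higher at both later days, as in Bglap3 with IAP-d-int. Pla2g1b, a secreted phospholipase gene, was lower at D13 than at D0 by 2.12 ± 0.37, beside 0.19 ± 0.47 for RLTR11A. The median log2 fold change of the 17 genes from D0 to D6 was 0.27.

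Families could also move without their listed gene. RLTR17 rose by 1.46 ± 0.38 from D0 to D6 (limma, adjusted p = 0.023), while Plcb4, paired with it, was at -0.22 ± 0.35 (adjusted p = 0.71). These were named after their values were seen.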
